A study of Mus musculus with 4 samples.

Results

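The genes that set how pre-mRNA is spliced were followed in 4 libraries of cultured mouse neural stem cells. Members were all protein-coding genes named Srsf with a number or starting with Hnrnp, together with a fixed list of SR-related proteins, Clk kinases and tissue-biased splicing factors. They numbered 53 of the 55487 genes measured and were set in 5 groups. These were 11 SR genes, 11 SR-related genes, 4 kinases, 20 hnRNP genes and 7 tissue-biased factors. The study deleted Tut1, which encodes the enzyme that adds the uridine tail to U6 snRNA, and Trp53, which encodes the transcription factor p53. Primary cultures came from embryonic neocortex and carried loxP-flanked ("floxed") alleles, which Cre recombinase excises. The control culture had the genotype Tut1f/f and received empty lipid nanoparticles (LNP). The Tut1 knockout culture (labelled Tut1 KO) had the same genotype and received LNP with Cre mRNA, the Trp53 knockout culture was p53f/f with Cre-LNP, and the double knockout culture was Tut1f/f;p53f/f with Cre-LNP. Cre treatment lasted 3 days per the study's text. The control therefore shares the Tut1 genotype of the Tut1 knockout culture but not that of the Trp53 knockout culture, and no culture received Cre without a floxed gene. There was 1 library per group, so there was no spread between cultures to compare with, no test was made and no error is given.

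SR proteins carry RNA recognition motifs and a tail rich in arginine and serine (the RS domain), bind exonic enhancers and recruit the spliceosome to nearby splice sites. Clk kinases phosphorylate the RS domain in the nucleus, which changes where SR proteins reside and what they bind. hnRNP proteins coat nascent transcripts, some carry arginine-glycine stretches, and many of them oppose SR proteins at exons and silence splice sites. Factors of the Ptbp, Mbnl, Celf and Rbfox families differ between tissues and stages and switch sets of exons during neural development.

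The stretches of coding sequence below show the repeats for which these protein families are known. In each line the codon pairs that encode arginine next to serine (or, for Hnrnpu, arginine next to glycine) are in capitals, over the 40 codons with most such pairs. The gene shown is the one with the largest fall of its group in Tut1 knockout minus control among members with at least 10 TPM in some library, from the SR, SR-related, kinase and hnRNP groups. This choice rests on uncorrected values. With GC content and length corrected for, Srsf4 fell more than Srsf10, and Hnrnpm more than Hnrnpu. The sequences are from GENCODE M21 (GRCm38), read 5′ to 3′ along the coding strand.
Srsf10: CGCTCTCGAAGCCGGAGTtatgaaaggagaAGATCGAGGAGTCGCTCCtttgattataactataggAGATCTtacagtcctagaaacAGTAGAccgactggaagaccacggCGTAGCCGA
Pnisr: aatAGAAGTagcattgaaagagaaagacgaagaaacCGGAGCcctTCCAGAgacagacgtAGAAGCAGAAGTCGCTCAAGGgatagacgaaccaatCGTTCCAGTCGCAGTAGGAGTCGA
Clk4: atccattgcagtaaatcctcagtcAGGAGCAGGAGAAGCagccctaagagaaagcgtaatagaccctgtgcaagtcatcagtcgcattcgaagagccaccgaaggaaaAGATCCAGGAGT
Hnrnpu: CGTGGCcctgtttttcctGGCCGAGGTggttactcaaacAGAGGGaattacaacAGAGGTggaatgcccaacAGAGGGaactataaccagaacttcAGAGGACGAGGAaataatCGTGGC
The Srsf10 stretch lies in exons 4 to 5 of 6 (chr4:135863117-135863556, plus strand, with an intron between its parts) and holds 14 arginine-serine pairs. The Pnisr stretch lies within exon 11 of 12 (chr4:21874050-21874169, plus strand) and holds 15. The Clk4 stretch spans exons 3 to 4 of 13 (chr11:51271933-51273107, plus strand) and holds 6. The Hnrnpu stretch spans exons 12 to 13 of 14 (chr1:178329910-178330254, minus strand) and holds 10 arginine-glycine pairs. Over whole coding sequences, SR genes had a median of 16.0 arginine-serine pairs per 100 codons (range 4.05 to 23.5), against 7.28 in SR-related genes, 3.59 in kinases, 0.99 in hnRNP genes and 0.72 in tissue-biased factors. Arginine-glycine pairs had medians of 2.80 per 100 codons in hnRNP genes, 2.52 in SR genes and 0.39 in tissue-biased factors. SR and hnRNP genes thus overlapped in arginine-glycine pairs but not in arginine-serine pairs, where the highest hnRNP gene had 2.55.

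Values were transcripts per 1000000 (TPM), for which the depth is unknown. Differences are of log2(TPM + 1) and understate changes of low genes. Genes with at least 10 TPM in at least 1 library were compared, which kept 9314 genes and 52 of the 53 members. Only Srsf12, at 2.51 to 6.05 TPM, was left out. Trp53 had 120 TPM in the control, 100 in the Tut1 knockout, 39.7 in the Trp53 knockout and 41.9 in the double knockout library. Tut1 had 12.2, 29.8, 12.5 and 13.7 TPM in the same order, so it was not lower in either library labelled as lacking it. Gene-level TPM need not follow the loss of single exons, and directions drawn from the library labelled Tut1 knockout rest on its label. All 9 neural stem cell markers reached 10 TPM, with Fabp7 between 7902 and 9441. Of 7 neuronal markers 3 reached 10 TPM, and the summed level of that list was 241 TPM in the control, 166 in the Tut1 knockout, 212 in the Trp53 knockout and 219 in the double knockout library. Within that list Map2 was the highest, at 141 to 208 TPM, and Stmn2 the lowest, at or below 0.11. Xist was at 188 and 204 TPM in the Tut1 knockout and Trp53 knockout libraries and at or below 0.01 in the other two, whereas 4 Y-linked genes were at 0 in the Tut1 knockout and Trp53 knockout libraries and above 5 TPM in the other two. Each of the 4 contrasts below therefore crosses this split, and in them the genotype cannot be told apart from this sex-linked split.

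The members together made up 1.38% of all TPM in the control, 1.13% in the Tut1 knockout, 1.24% in the Trp53 knockout and 1.28% in the double knockout library. hnRNP genes held most of it, with 9633 TPM in the control, 7934 in the Tut1 knockout, 8429 in the Trp53 knockout and 8820 in the double knockout library. SR genes summed to 2300.0, 1844, 2237 and 2213 TPM in that order, SR-related genes to 1214, 989, 1185 and 1167 TPM, and tissue-biased factors to 437, 344, 378 and 395 TPM. The 4 kinases summed to 230, 203, 221 and 221 TPM. The Tut1 knockout library was lowest for all 5 sums. A lower TPM is a smaller share of the transcripts, and less RNA per cell cannot be told apart from fewer cells that express a gene.

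In Tut1 knockout minus control, 49 of 52 members were below 0 (94.2%, against 60.8% of all genes compared). Their median difference was -0.32 on the log2 scale, against -0.09 over all genes. The differences were modest. No member reached 2-fold in either direction, where 4.20% of all genes did, and 8 were lower by at least 1.5-fold (15.4%, against 8.15% of all genes). With GC content and length of the transcripts corrected for, 0 members were past 1.5-fold and the median was -0.10. The corrected share of all genes past 1.5-fold is not given, so this count has no background beside it. Without correction, none was higher by 1.5-fold, against 4.14%. The 3 exceptions to the lower levels were Srsf9 (0.11), Srrm2 (0.11) and Luc7l (0.01), an SR protein, a scaffold of nuclear speckles and a relative of a U1 snRNP protein. These exceptions are for uncorrected values. With the correction Srsf9 was at -0.04, and 35 of 52 members were below 0. The Tut1 knockout library was the lowest of the 4 for 38 members (73.1%, against 41.1% of all genes), and the control the highest for 31 (59.6%, against 29.6%).

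**Figure D1:**
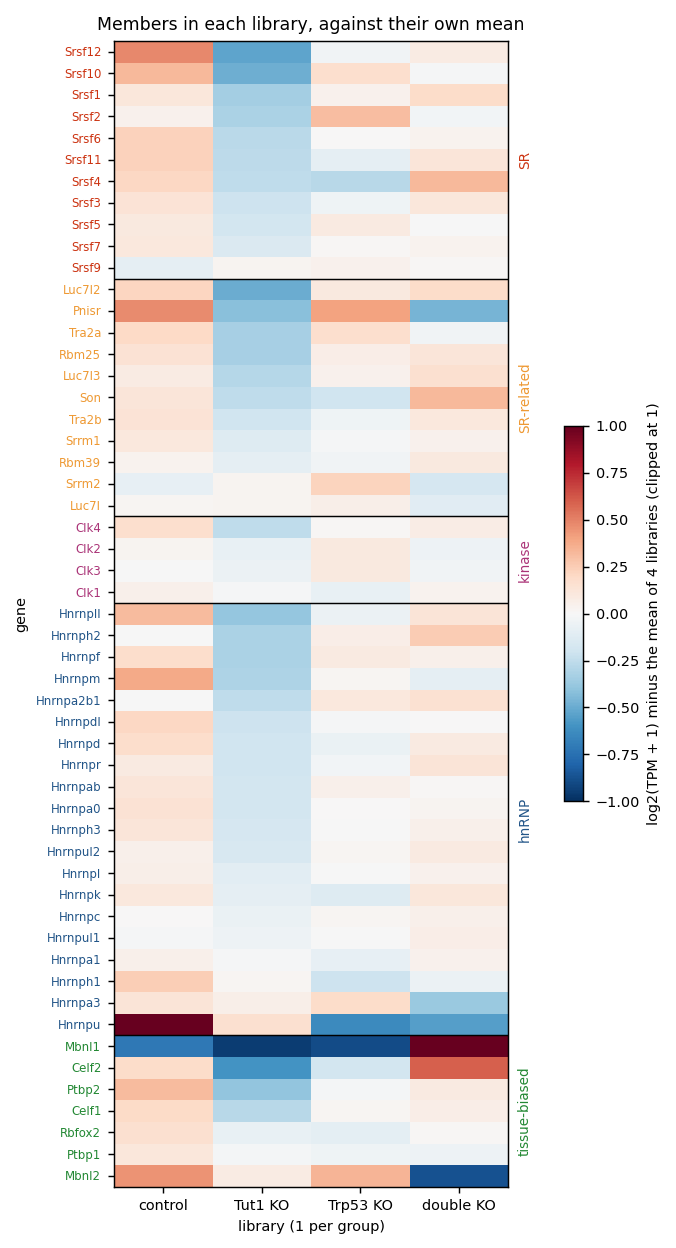
Heat map of the 53 members (rows, coloured by group) in the 4 libraries (columns, with KO for knockout), as log2(TPM + 1) minus the member's mean over the 4 libraries, clipped at 1 in either direction. The Tut1 knockout column is blue for most members, while Pnisr is low in both libraries from treated Tut1f/f cultures, Hnrnpu in both libraries from treated p53f/f cultures, and Mbnl1 is high in the double knockout alone.

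In double knockout minus Trp53 knockout, 16 of 52 members were below 0 (30.8%, against 41.4% of all genes), and the median was 0.06, against 0.05. Correcting for the GC content and length of transcripts, as described further on, turned this count, to 30 of 52 below 0 (57.7%, against 47.7% of protein-coding genes) with a median of -0.03, against 0.01. The same correction left 35 of 52 below 0 in Tut1 knockout minus control. Past 1.5-fold, 3 members were higher (3.62% of all genes) and 2 lower (4.38%), and past 2-fold there were 2, against 3.22% of all genes. These were Mbnl1 and Mbnl2. The Tut1 contrasts with and without p53 share no library, and whether they differ was not tested. In Trp53 knockout minus control, 41 members were below 0 (59.9% of all genes) with a median of -0.12, against -0.05. Corrected, 29 were below 0 (55.8%, against 50.3% of protein-coding genes). Hnrnpu alone was lower by 1.5-fold (4.48% of all genes), none was higher (4.07%), and Hnrnpu alone passed 2-fold (3.93%). Below 0 in double knockout minus Tut1 knockout were 9 members (39.6% of all genes) and the median was 0.22, against 0.09. Corrected, 20 were below 0 (38.5%, against 49.0% of protein-coding genes). Here 3 members were higher by 1.5-fold (6.65%), namely Mbnl1, Celf2 and Luc7l2, and 2 were lower (4.26%), Mbnl2 and Hnrnpu. Mbnl1 and Celf2 passed 2-fold, against 3.99% of all genes.

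**Figure D2:**
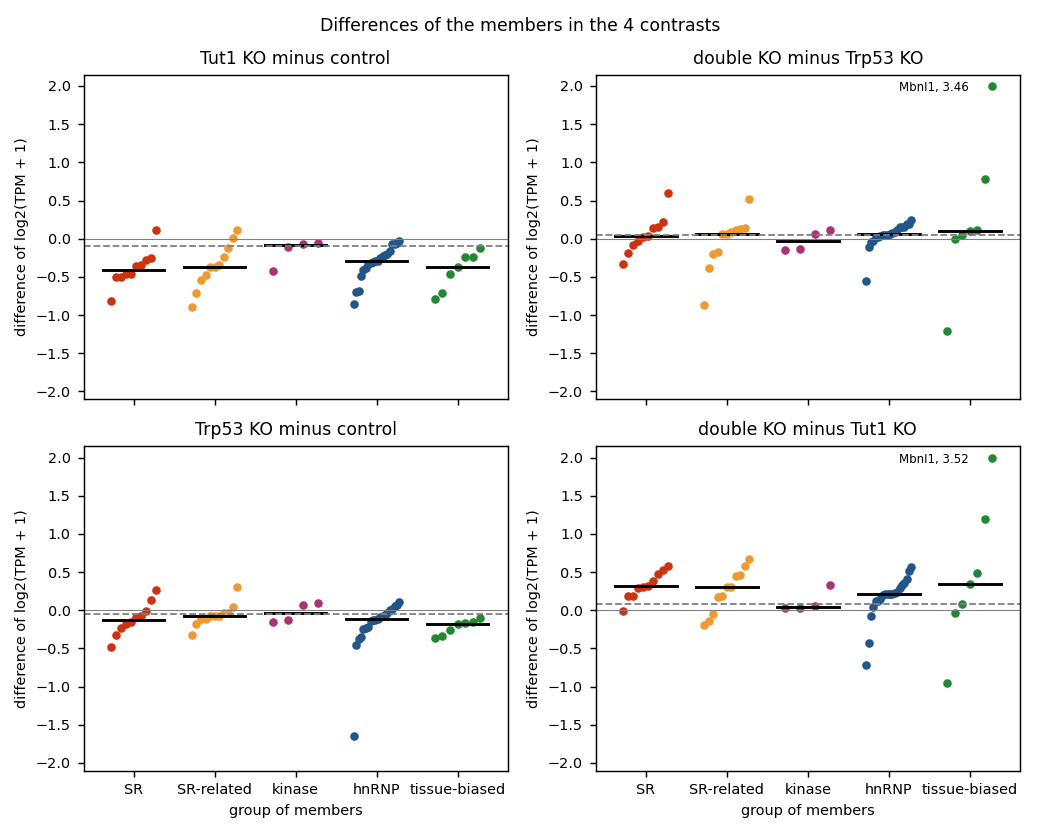
Difference of log2(TPM + 1) for the 52 members compared, by group, in the 4 contrasts. Each point is a gene, the black bar is the group's median and the dashed line the median of all 9314 genes, and Mbnl1 is drawn at the upper edge with its value. In Tut1 knockout minus control the SR, SR-related, hnRNP and tissue-biased medians lie between -0.41 and -0.29, and the kinase median is -0.09.

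Among the SR genes, 9 of 10 were lower in the Tut1 knockout library than in the control (60.8% of all genes were), with a median of -0.41. Corrected for GC content and length, 8 of 10 were lower (49.4% of protein-coding genes). Srsf10, an SR protein that acts as a repressor once dephosphorylated, had the largest uncorrected fall. With GC content and length corrected for, Srsf4 fell more, at -0.51 against -0.45 for Srsf10. Srsf10 was at 78.9 TPM in the control, 44.5 in the Tut1 knockout, 70.8 in the Trp53 knockout and 62.3 in the double knockout library. Its difference was -0.81 in Tut1 knockout minus control and -0.18 in double knockout minus Trp53 knockout. The Tut1 knockout library was the lowest and the control the highest. Srsf2, the most abundant SR gene, which encodes a classical enhancer-binding speckle protein, was at 421, 328, 506 and 400 TPM in the order control, Tut1 knockout, Trp53 knockout and double knockout. It was thus highest in the Trp53 knockout library, and its difference was -0.36 in Tut1 knockout minus control and -0.34 in double knockout minus Trp53 knockout. Srsf4, one of the longest SR proteins, was at 104 TPM in the control, 75.4 in the Tut1 knockout, 74.3 in the Trp53 knockout and 113 in the double knockout library. The control and double knockout, the libraries with Y-linked transcripts, were the higher pair. In pairs alike in sex-linked genes, Srsf4 differed by 0.11 in double knockout minus control and 0.02 in Tut1 knockout minus Trp53 knockout. The differences of Srsf4 were -0.46 in Tut1 knockout minus control, 0.59 in double knockout minus Trp53 knockout and -0.48 in Trp53 knockout minus control. Srsf9 was the steadiest of the group at 238 to 261 TPM. Srsf1, Srsf3, Srsf5, Srsf6, Srsf7 and Srsf11 differed by -0.50 to -0.25 in Tut1 knockout minus control and by -0.09 to 0.21 in double knockout minus Trp53 knockout. Srsf12, the least abundant, was at 6.05, 2.51, 3.92 and 4.34 TPM, below the minimum in every library.

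Among the 11 SR-related genes, 9 were lower in the Tut1 knockout library than in the control (60.8% of all genes were), with a median of -0.36. Corrected as above, 7 of 11 were lower (49.4% of protein-coding genes). Pnisr, which encodes a serine- and arginine-rich protein of nuclear speckles (ENSMUSG00000028248, chromosome 4, 21847583 to 21876475, plus strand, GRCm38), was the one member lower by at least 1.5-fold in both Tut1 contrasts, against 1.07% of all genes. It was at 67.4 TPM in the control, 36.0 in the Tut1 knockout, 64.1 in the Trp53 knockout and 34.8 in the double knockout library. The libraries from cultures with treated Tut1f/f alleles were both low, the other two were both high, and no value lay between. The differences were -0.89 in Tut1 knockout minus control and -0.86 in double knockout minus Trp53 knockout, and -0.07 and -0.05 in the contrasts for Trp53. In pairs of libraries alike in Xist and the Y-linked genes, the difference of Pnisr was -0.93 in double knockout minus control and -0.82 in Tut1 knockout minus Trp53 knockout. Pnisr is also a gene for which the study reported altered intron retention in Tut1 knockout neural stem cells. Luc7l2, a relative of a U1 snRNP protein, was at 98.3, 59.9, 90.7 and 96.3 TPM in the order control, Tut1 knockout, Trp53 knockout and double knockout, low in the Tut1 knockout library alone (-0.71). Its paralogue Luc7l3 was at 123, 95.0, 120 and 130 TPM (-0.36), and Luc7l, the least abundant gene of the group, stayed at 41.8 to 47.3 TPM. Son, a large speckle scaffold, was at 66.0, 50.7, 52.6 and 76.2 TPM, and Srrm2, the other large scaffold, at 162, 175, 201 and 153 TPM. Their differences had opposite signs in each contrast, for example 0.53 for Son and -0.39 for Srrm2 in double knockout minus Trp53 knockout. The activators Tra2a and Tra2b differed by -0.54 and -0.34 in Tut1 knockout minus control. With GC content and length corrected for, Tra2a was at -0.37, Tra2b at -0.002 and Luc7l3 at 0.03 in this contrast. Rbm39, the most abundant gene of the group, was at 186 to 212 TPM.

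The Clk kinases had the group median closest to 0 in Tut1 knockout minus control, at -0.09, but this order rests on uncorrected values. With GC content and length corrected for, their median was -0.13, further from 0 than those of the SR-related, tissue-biased and hnRNP genes. With the median of all genes set to 0 it was 0.01, so its sign depends on the scaling. Clk1 was at 76.8 TPM in the control, 73.2 in the Tut1 knockout, 70.1 in the Trp53 knockout and 75.9 in the double knockout library. Its closest paralogue Clk4 was at 70.4, 52.4, 63.0 and 65.9 TPM in that order. Clk2 was at 41.2, 38.3, 43.3 and 38.9 TPM, and Clk3 at 41.2, 39.5, 44.2 and 40.2 TPM. Clk4 was the one kinase with a difference beyond 0.2, at -0.42 in Tut1 knockout minus control and 0.33 in double knockout minus Tut1 knockout. The ratio of Clk1 to Clk4 was 1.40 in the Tut1 knockout library and 1.09 to 1.15 in the other three. No kinase passed 1.5-fold in any contrast. The exons of Clk4 overlap a small RNA gene on the same strand, so its value is less certain. Of the kinases that act on RS domains but were no members, Srpk1 was at 37.4, 32.9, 34.5 and 36.0 TPM (-0.18 in Tut1 knockout minus control) and Srpk2 at 32.3, 22.6, 25.6 and 28.6 TPM (-0.50).

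**Figure D3:**
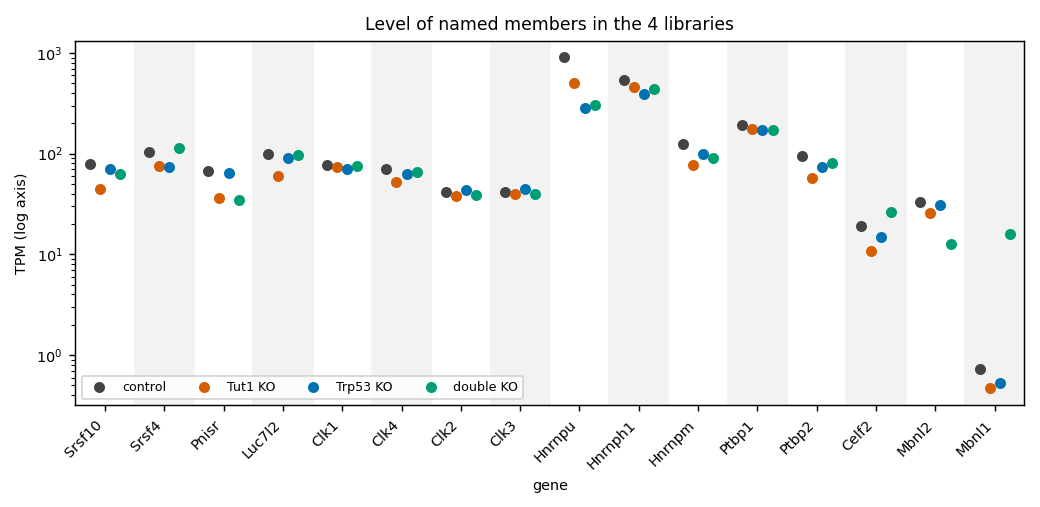
TPM on a log axis of 16 members in the control, Tut1 knockout, Trp53 knockout and double knockout libraries, 1 point per library. Pnisr sits at 34.8 to 36.0 in the Tut1 knockout and double knockout libraries and at 64.1 to 67.4 in the other two, while Clk1, Clk2 and Clk3 differ little between libraries.

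All 20 hnRNP genes were lower in the Tut1 knockout library than in the control (60.8% of all genes were), with a median of -0.29. In double knockout minus Trp53 knockout 4 of them were below 0 (41.4% of all genes), with a median of 0.06. With GC content and length corrected for, 12 of 20 were below 0 in the former contrast and 10 of 20 in the latter, against 49.4% and 47.7% of protein-coding genes. Hnrnpa1, the most abundant member of all and a classical antagonist of SR proteins, was at 1938 TPM in the control, 1860 in the Tut1 knockout, 1771 in the Trp53 knockout and 1924 in the double knockout library. Its differences stayed within 0.13 of 0. Hnrnpu encodes a scaffold protein that binds chromatin and nascent RNA (ENSMUSG00000039630, chromosome 1, 178321108 to 178337797, minus strand, GRCm38). It was at 904 TPM in the control, 499 in the Tut1 knockout, 287 in the Trp53 knockout and 304 in the double knockout library. All Cre-treated cultures were below the control, as for 29.6% of all genes, and those with floxed Trp53 were the lowest. The differences were -0.86 in Tut1 knockout minus control, -1.65 in Trp53 knockout minus control, -0.71 in double knockout minus Tut1 knockout and 0.08 in double knockout minus Trp53 knockout. It was the one member lower by 1.5-fold in both Trp53 contrasts, against 1.12% of all genes. In the pairs alike in sex-linked genes its difference was -1.57 in double knockout minus control and 0.80 in Tut1 knockout minus Trp53 knockout. Without Hnrnpu, the hnRNP sum was 8728 TPM in the control, 7436 in the Tut1 knockout, 8142 in the Trp53 knockout and 8516 in the double knockout library.

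Hnrnpll and Hnrnpm were the other hnRNP genes lower by 1.5-fold in the Tut1 knockout library. Hnrnpll, a repressor of alternative exons, was at 83.1, 50.6, 63.7 and 72.9 TPM in the order control, Tut1 knockout, Trp53 knockout and double knockout (-0.70). Hnrnpm was at 126, 78.0, 98.5 and 91.1 TPM (-0.69), and its exons overlap those of Marchf2 on the same strand. Hnrnph1, which binds G-rich runs, was at 543, 463, 395 and 440 TPM, with a difference of -0.46 in Trp53 knockout minus control. Hnrnph2, its X-linked paralogue, was at 115, 91.8, 120 and 137 TPM. Hnrnpk, Hnrnpl and Hnrnpc differed by -0.20 to -0.07 in Tut1 knockout minus control. Hnrnpul1 was among the steadiest hnRNP genes, at 119 to 129 TPM.

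The value of Hnrnpa3 is uncertain because genes described as its pseudogenes held far more TPM than the gene itself. The gene itself, the least abundant of the group, was at 58.4 TPM in the control, 55.8 in the Tut1 knockout, 60.8 in the Trp53 knockout and 41.1 in the double knockout library. The 16 genes described as its pseudogenes summed to 1080.5, 730, 906 and 886 TPM in that order, or 92.9% to 95.6% of the total of parent and pseudogenes. The pseudogene Gm5641 alone was at 762, 524, 643 and 637 TPM. For the gene alone the differences were -0.07 in Tut1 knockout minus control and -0.55 in double knockout minus Trp53 knockout. For parent and pseudogenes summed they were -0.54 and -0.06, so which contrast held the larger fall changed with the sum. How reads from near-identical copies were divided was not tested. Hnrnpf had 22.8% of its summed level in 4 pseudogenes in the control, and its difference in Tut1 knockout minus control was -0.49 alone and -0.53 in the sum. In the other 12 members with a pseudogene by description, no pseudogene reached 10 TPM.

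**Figure D4:**
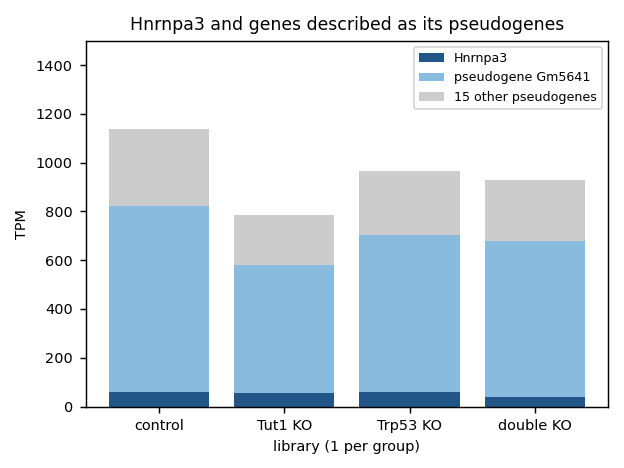
Stacked bars of TPM for Hnrnpa3 (bottom), the pseudogene Gm5641 (middle) and the other genes described as Hnrnpa3 pseudogenes (top) in the 4 libraries, 1 library per group. Hnrnpa3 itself is a thin band of 41.1 to 60.8 TPM, and the whole bar is highest in the control and lowest in the Tut1 knockout library.

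The tissue-biased factors held the largest single difference, that of Mbnl1, which passed the minimum of 10 TPM through the double knockout library alone. Mbnl1, a muscleblind-like factor that takes part in exon switches during maturation (ENSMUSG00000027763, chromosome 3, 60472830 to 60629750, plus strand, GRCm38), was at 0.73 TPM in the control, 0.47 in the Tut1 knockout, 0.53 in the Trp53 knockout and 15.8 in the double knockout library. It was near 0 in the first 3 and clearly present in the double knockout library, by 3.46 over the Trp53 knockout and 3.52 over the Tut1 knockout library. With a pseudocount of 0.1 or 5 in place of 1, the former value was 4.67 or 1.91. Mbnl2, its paralogue (chromosome 14, 120275669 to 120431697, plus strand), went the other way, at 33.3, 25.7, 30.9 and 12.8 TPM. The double knockout library was the lowest, by -1.21 from the Trp53 knockout and -0.95 from the Tut1 knockout library. The ratio of Mbnl2 to Mbnl1 was 45.8 in the control, 54.9 in the Tut1 knockout, 58.8 in the Trp53 knockout and 0.81 in the double knockout library. Neither gene shares exons with another on its own strand. Mbnl3 stayed at or below 0.04 TPM.

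Celf2, which binds GU-rich elements in introns (chromosome 2, 6539694 to 7509563, minus strand), was at 19.3 TPM in the control, 10.8 in the Tut1 knockout, 14.8 in the Trp53 knockout and 26.1 in the double knockout library. It was lower in the Tut1 knockout than in the control (-0.78) and higher in the double knockout than in the Trp53 knockout library (0.78), so the Tut1 contrasts had opposite signs, and it was 1.20 higher in the double knockout than in the Tut1 knockout library. Celf1 was at 68.8, 49.5, 60.9 and 62.8 TPM (-0.47). Ptbp1, the repressor of neuronal exons in progenitors and the most abundant of the group, was at 191, 175, 171 and 171 TPM, within 0.16 of 0 in every contrast. Ptbp2, which follows Ptbp1 in young neurons, was at 94.0, 57.1, 74.2 and 80.2 TPM (-0.71). The ratio of Ptbp1 to Ptbp2 was 3.06 in the Tut1 knockout library and 2.03 to 2.31 in the other three. The summed neuronal markers were also lowest in the Tut1 knockout library, mostly through Map2, at 208 TPM in the control and 141 in the Tut1 knockout library. Snap25 was at 9.65 TPM in the control and 3.38 in the Tut1 knockout library, Dcx at 2.77 and 3.13, and Syt1 at 2.72 in both. Rbfox3, at 4.90 TPM in the control, and Tubb3, at 12.6, were also lower in the Tut1 knockout library. Their part in the level of Ptbp2 and Celf2 was not tested. Rbfox2, which binds a hexamer beside alternative exons, was at 30.1, 25.5, 25.0 and 27.0 TPM.

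Set side by side in Tut1 knockout minus control, the medians were -0.41 for SR, -0.36 for SR-related, -0.29 for hnRNP, -0.37 for tissue-biased and -0.09 for kinase genes. The middle spread of SR genes (quartiles -0.49 to -0.30) overlapped that of hnRNP genes (-0.39 to -0.19). In double knockout minus Trp53 knockout the same medians were 0.03, 0.06, 0.06, 0.11 and -0.04. The GC and length correction turned the first 4 below 0, to -0.04, -0.05, -0.01 and -0.01, and left the kinases at -0.06. Beyond the members, 45 other splicing regulators had medians of -0.35 and 0.10 in these contrasts, and -0.06 and 0.01 with the correction. Among them Elavl1, which encodes the RNA-binding protein HuR, was at 100.3 TPM in the control and 50.5 in the Tut1 knockout library. Matr3, a nuclear matrix protein that binds RNA, was at 191, 95.1, 106 and 81.7 TPM in the order control, Tut1 knockout, Trp53 knockout and double knockout. The control was thus the highest library for Matr3, as for Hnrnpu and for 29.6% of all genes. The 46 core spliceosome genes (snRNP proteins, Lsm, SF3 and Prpf genes) had medians of 0.08 in Tut1 knockout minus control and 0.14 in double knockout minus Trp53 knockout, and 16 of them were below 0 in the former, against 60.8% of all genes. The gene Prpf4b is counted in both of these lists.

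Base composition moved with these differences. Members had a median transcript GC content of 44.1%, against 50.2% for all 8474 protein-coding genes compared. In Tut1 knockout minus control, the median difference went from -0.37 in the tenth of genes with the lowest GC content to 0.11 in the tenth with the highest. The correlation with GC content across 8459 genes had Pearson r = 0.31 and Spearman rho = 0.45, and across the 52 members r = 0.37 and rho = 0.31. Genes within a library share its depth and composition and are not replicates. After a quadratic correction for GC content and transcript length, 35 of 52 members were below 0 (67.3%, against 49.4% of coding genes), and the median was -0.10, against 0.00. The corrected medians were -0.17 for SR, -0.11 for SR-related, -0.13 for kinase, -0.06 for hnRNP and -0.08 for tissue-biased genes, so the kinases no longer stood apart from the rest. No member was past 1.5-fold in Tut1 knockout minus control after correction, with no corrected share of all genes to set beside it. Pnisr was then at -0.58, just short of that threshold, and at -0.98 in double knockout minus Trp53 knockout. Hnrnpu was at -0.41 in Tut1 knockout minus control and -1.47 in Trp53 knockout minus control, Srsf10 at -0.45, and Mbnl1 at 3.30 in double knockout minus Trp53 knockout. The core spliceosome genes, with a median GC content of 47.4%, had a corrected median of 0.16 in Tut1 knockout minus control.

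**Figure D5:**
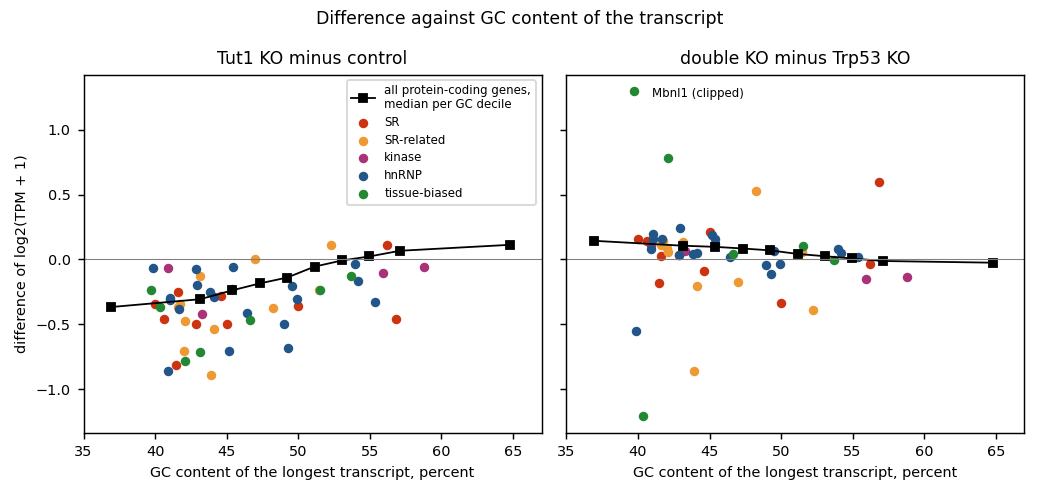
Difference of log2(TPM + 1) against GC content of the longest coding transcript, in percent, for Tut1 knockout minus control (left) and double knockout minus Trp53 knockout (right). Points are the 52 members by group, Mbnl1 is clipped on the right, and the black line joins the medians of all protein-coding genes in 10 bins of GC content. On the left the line rises from -0.37 to 0.11 and most members lie at low GC content, on or below it.

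Many of these genes regulate themselves through transcripts that are degraded by nonsense-mediated decay (NMD), often with a retained intron or a poison exon. An annotated NMD transcript existed for 37 of the 52 members (71.2%), against 31.0% of protein-coding genes. By group these were 9 of 10 SR, all 11 SR-related, all 4 kinase, 10 of 20 hnRNP and 3 of 7 tissue-biased genes. A retained-intron transcript was annotated for 80.8% of members, against 63.8% of coding genes. The 37 members with an NMD transcript had a median of -0.35 in Tut1 knockout minus control, and the other 15 had -0.31. TPM per gene adds up all transcripts of a gene, so levels of single isoforms were not analysed here.

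Libraries that agree in Xist and the Y-linked genes were also set against each other. In double knockout minus control, 37 of 52 members were below 0 (50.5% of all genes), with a median of -0.07, against 0.00, and 3 were lower by 1.5-fold (4.54%). These were Pnisr, Hnrnpu and Mbnl2. Mbnl1 alone was higher by 1.5-fold, at 3.28 (3.40% of all genes). In Tut1 knockout minus Trp53 knockout, 44 members were below 0 (56.6% of all genes), with a median of -0.17, against -0.05, and 4 were lower by 1.5-fold (7.06%). Hnrnpu alone was higher by 1.5-fold, at 0.80 (4.73%). The group medians in that pair lay between -0.26 (tissue-biased) and -0.17 (kinase). The libraries of each pair also differ in Trp53 deletion, and these values were not corrected for GC content.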

How the data were processed

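Members, lists and thresholds were chosen with earlier results of these data known. Per the labels and methods, total RNA of cultured primary neural stem cells from E12.5 dorsal pallium was used. Per the labels a short-read stranded mRNA kit was used, whereas the series text describes long-read sequencing. The submitters' processing notes name Trimmomatic, HISAT2, StringTie and mm10, without versions. The authors deposited 1 table of TPM per gene, and TPM keeps no depth. Here, differences of log2(TPM + 1) were taken between single libraries for genes with TPM of at least 10 in any of the 4, and no test was run. Thresholds were 2-fold and 1.5-fold. Named were all kinases, the 3 largest rises and falls of each contrast, and the extremes of abundance in each group. So were members past 2-fold in any contrast or past 1.5-fold in both contrasts of 1 gene. Pnisr was named because the study shows its splicing. Other genes were named after their values were seen. Annotation and sequences came from GENCODE M21 (GRCm38), matching 99.5% of gene IDs and all 53 members. The code was tested on simulated libraries. Sums with pseudogenes, the omission of Hnrnpu or Mbnl1, and the pairs alike in sex-linked genes were added after the data were seen. Scripts ran in Python 3.11.15 with pandas 2.3.3, numpy 2.4.6, matplotlib 3.10.9 and scipy 1.17.1.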

Additional observations from a re-analysis of the deposited data

Results flagged for a closer look

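Celf2 was singled out because it differed by at least 1.5-fold in opposite directions between the contrasts for Tut1, -0.78 in Tut1 knockout minus control and 0.78 in double knockout minus Trp53 knockout. The gap between them was -1.56 on the log2 scale. With 1 library per group the difference between the contrasts was not tested. The split of Xist and Y-linked transcripts among the libraries follows the same pattern, and its part in the gap was not tested. After correction for GC content and transcript length, Celf2 was at -0.36 in the former contrast, short of 1.5-fold, and at 0.63 in the latter.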

How the results depend on the processing

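Of 384 recomputed group medians and counts, 357 stayed close to the reported value (medians within 0.1, counts within 1.5 times), 26 moved and 1 reversed, counting as reversed only a median of at least 0.1 in size. Of 288 recomputed medians 15 changed sign, and 14 of these were under 0.1 in size. The GC and length correction, in double knockout minus Trp53 knockout, turned the medians of all members (-0.0267), SR (-0.044) and hnRNP genes (-0.0138) too. Of 848 recomputed values of named members, 774 stayed within 0.1, 74 moved and none past 1.5-fold reversed. Many of them could not change, because another minimum or leaving out other genes does not alter a gene's own difference. Likewise, leaving out Hnrnpu or Mbnl1 cannot alter the median of a group without it. Under the GC and length correction, 48 of 72 values of named members moved. The correction for GC content and length moved most. In Tut1 knockout minus control it gave medians of -0.0991 for all members, -0.17 for SR, -0.114 for SR-related, -0.063 for hnRNP and -0.078 for tissue-biased genes, with 0 members past 1.5-fold. In double knockout minus Trp53 knockout it gave -0.0462 for SR-related genes and, reversed, -0.00587 for tissue-biased genes. In Trp53 knockout minus control it gave -0.00135 for SR and 0.0314 for SR-related genes, and in double knockout minus Tut1 knockout 0.0796 for all members, 0.116 for SR, 0.0629 for SR-related, 0.0516 for hnRNP and 0.0769 for tissue-biased genes. The tissue-biased median in Tut1 knockout minus control was -0.473 with a pseudocount of 0.1 and -0.248 after quantile normalization. A pseudocount of 5 left 1 member past 2-fold in double knockout minus Tut1 knockout. A minimum of 1 TPM or none let 1 member, Srsf12, past 2-fold in Tut1 knockout minus control. Without genes that share exons, the kinase median was -0.136 in double knockout minus Trp53 knockout and 0.0705 in Trp53 knockout minus control. Without Hnrnpu, 0 members were past either threshold in Trp53 knockout minus control. Without Mbnl1, 1 member was past 2-fold in double knockout minus Trp53 knockout and 1 in double knockout minus Tut1 knockout, and the tissue-biased median in the latter was 0.209. No paired analysis was possible because each group had 1 library. The unknown depth leaves counting error unmeasured, which matters most for low genes such as Mbnl1 and Srsf12.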

Other observations

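Among splicing regulators outside the member list, Elavl4, a neuronal RNA-binding protein, was at 19.8 TPM in the control, 0.37 in the Tut1 knockout, 16.9 in the Trp53 knockout and 22.0 in the double knockout library. Tia1, which promotes use of weak 5′ splice sites, was at 33.3 TPM in the control, 53.8 in the Tut1 knockout, 68.2 in the Trp53 knockout and 28.1 in the double knockout library, so the libraries with Xist were the higher pair. Raly, a relative of hnRNP C, was at 187 and 190 TPM in the control and Tut1 knockout and at 360 and 358 TPM in the Trp53 knockout and double knockout libraries. Rsrp1, an arginine- and serine-rich protein, was highest in the double knockout library at 94.5 TPM, against 42.6 to 60.8 in the other three. These genes were picked after their values were seen.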
